A study of Mus musculus with 28 samples.

Results

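The genes described here were 10 factors of the naive pluripotency network of mouse embryonic stem cells (mESCs): Nanog, Klf2, Klf4, Klf5, Esrrb, Tfcp2l1, Zfp42, Tbx3, Prdm14 and Dppa3. They were chosen by name as known factors of this network, with earlier results of these data known, and are 10 of the 37991 gene identifiers in the RNA count tables. All 10 were among the 20321 genes that had enough reads to be tested. Their reads, summed over the 16 RNA libraries, ran from 13365 for Dppa3 to 541863 for Tfcp2l1. The study asked what depletion of KAP1 does in mESCs that have or lack the enzymes that methylate DNA or oxidise its methyl group.

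All RNA libraries came from mESCs labelled as line J1 of strain 129S4/SvJae, grown in 2i + LIF. In the wild type (WT) no gene was deleted. The DNMT triple knockout (TKO) lacked Dnmt1, Dnmt3a and Dnmt3b, the DNA methyltransferases, and the TET TKO lacked Tet1, Tet2 and Tet3, the enzymes that convert 5-methylcytosine to 5-hydroxymethylcytosine (5hmC). Each line received a lentiviral vector with puromycin selection that carried no hairpin (shEmpty) or a hairpin against Kap1 (shKap1), and was collected on day 5. There were 3 libraries per hairpin for WT and for DNMT TKO and 2 for TET TKO. Each genotype was a single cell line, and per the methods the knockout lines came from separate laboratories, so the effect of a deletion and that of a line cannot be told apart. Per the methods the libraries of a group came from independent experiments.

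Naive mESCs resemble the epiblast before implantation and renew themselves when LIF activates STAT3 and a pair of inhibitors blocks MEK and GSK3. Most of the genes above encode transcription regulators that feed into this state at different points and also regulate one another. KAP1, encoded by Trim28, is the corepressor through which KRAB zinc finger proteins direct H3K9me3 to transposable elements and imprinted regions.

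Each RNA library held 18108431 to 29373696 reads on genes. Trim28 fell to 9.42% of its shEmpty level in WT, to 22.9% in DNMT TKO and to 9.03% in TET TKO. The fall was smaller in DNMT TKO than in WT by 1.28 ± 0.21 on the log2 scale (adjusted p = 0.000802, edgeR quasi-likelihood test), so the factors were compared at unequal residual Trim28. Of the 6 deleted genes 5 were lower in the line that lacks them, with reads left: Dnmt1 stood at 156 CPM, a read count scaled to library size, in DNMT TKO shEmpty against 489.7 in WT, and Tet1 at 233 CPM in TET TKO shEmpty against 655 in WT. Tet3 had 13.8 CPM in TET TKO shEmpty and 13.9 in WT, which is no check of the label, since reads from the rest of a gene can remain after a deletion. Pou5f1, the general pluripotency factor, lay at 613 to 838 CPM in the 6 group means. In bulk RNA, fewer cells of a type and less RNA per cell cannot be told apart. The paper reports that mESCs depleted of KAP1 soon stopped dividing and that many died, beginning before the time of collection. The part of this arrest and cell death in the changes on knockdown was not tested.

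Levels of different genes were compared as TPM, a scaled transcript count that divides reads by exon length. In WT shEmpty cells Nanog, the homeodomain factor of the network, stood highest at 1356 TPM (mean of n = 3). Tfcp2l1, a CP2-family factor downstream of LIF, followed at 514 TPM. Esrrb, an orphan nuclear receptor that is derepressed when GSK3 is inhibited, had 396 TPM. The Krüppel-like factors came next, with Klf2 at 369 TPM, Klf4 at 298 TPM and Klf5 at 212 TPM. Klf5 overlapped between libraries with its neighbour Zfp42, also called Rex1, a zinc finger gene widely used as a marker of the naive state, at 201 TPM. Tbx3, a T-box factor, had 115 TPM and Prdm14, a PR-domain regulator that represses Dnmt3a and Dnmt3b in mESCs, had 72.3 TPM. Dppa3, or Stella, which protects DNA methylation in the early embryo, was lowest at 35.1 TPM. No other pair of neighbours in this order overlapped in WT shEmpty.

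In mm9 the genes lay on 7 chromosomes, and only Nanog with Dppa3 lay close together. Nanog (ENSMUSG00000012396) is at chr6:122657507-122664651 and Dppa3 (ENSMUSG00000046323) at chr6:122576428-122580290, both on the plus strand. Klf2 (ENSMUSG00000055148, chr8:74842932-74845555, plus) and Zfp42 (ENSMUSG00000051176, chr8:44380422-44392363, minus) share chromosome 8. Tfcp2l1 (ENSMUSG00000026380, chr1:120524522-120581744, plus) and Prdm14 (ENSMUSG00000042414, chr1:13103538-13117244, minus) share chromosome 1. Klf4 (ENSMUSG00000003032) is at chr4:55540013-55545347 on the minus strand, Tbx3 (ENSMUSG00000018604) at chr5:120120678-120134733, Esrrb (ENSMUSG00000021255) at chr12:87702067-87862578 and Klf5 (ENSMUSG00000005148) at chr14:99697910-99712624, the last 3 on the plus strand. All values are of reads over the exons of these genes.

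The order by TPM changed between groups, with the following among the moves. Nanog was first in all 6 groups. Zfp42 was second in DNMT TKO shEmpty, with 1014 TPM. Klf2 was second in all 3 shKap1 groups, with 528 TPM in WT, 520.5 TPM in DNMT TKO and 558 TPM in TET TKO. Prdm14 was last in all 3 shKap1 groups and in DNMT TKO shEmpty. Dppa3 was last in the shEmpty groups of WT and TET TKO, in the latter overlapping with Prdm14 between libraries but below it within each. In WT shKap1 Prdm14 had 10.9 TPM, and the libraries of Dppa3 (30.9 TPM) and Tbx3 (30.1 TPM), next above it, overlapped with each other. In both groups of DNMT TKO the libraries of Prdm14 overlapped with those of Tbx3.

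The same gene was compared between groups as CPM after TMM scaling. The genes differed in how far they moved: the ratio of the highest to the lowest of the 6 group means was 9.78 for Prdm14, 7.40 for Dppa3, 6.47 for Zfp42 and 4.43 for Tbx3. It was 2.97 for Tfcp2l1, 2.92 for Klf4 and 2.73 for Klf5. Esrrb (1.93), Nanog (1.68) and Klf2 (1.48) spanned the narrowest ranges. WT shKap1 held the lowest mean of Nanog, Klf5, Tfcp2l1, Zfp42, Tbx3, Prdm14 and Dppa3, while Klf2 was lowest in WT shEmpty.

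**Figure D1:**
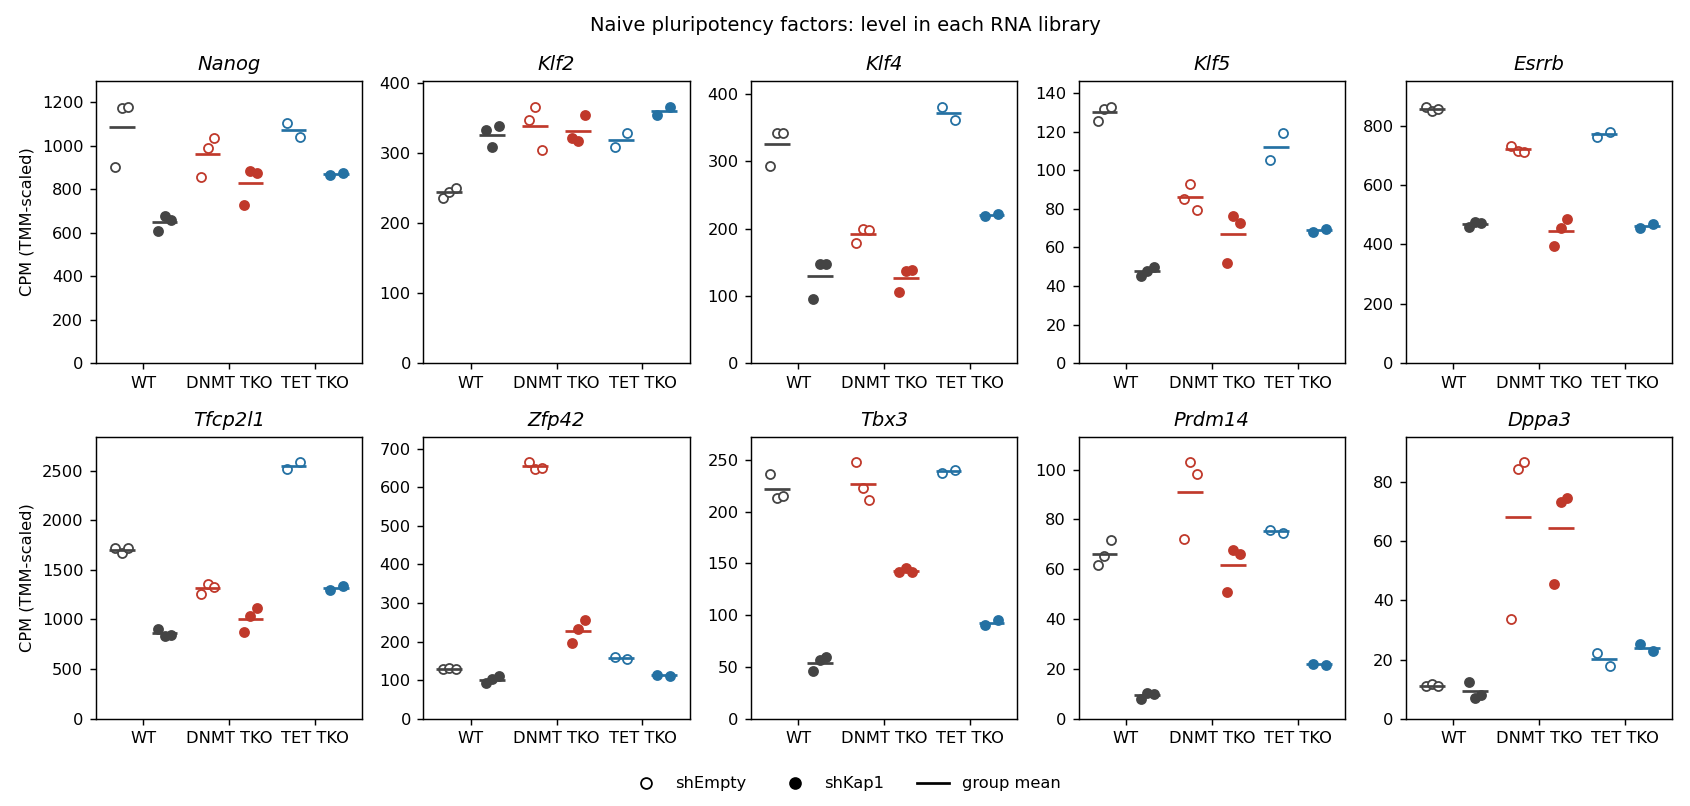
Level of each of the 10 genes in every RNA library, in CPM on a linear axis of its own that starts at 0, by genotype and hairpin; points are libraries and lines are group means. Prdm14 and Tbx3 were lowest in WT shKap1, and Zfp42 stood at 648 to 665 CPM in DNMT TKO shEmpty, above every library of the other groups.

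Knockdown of Kap1 in WT cells lowered most of the network. A gene is said to have passed where its Benjamini-Hochberg adjusted p, over all genes tested in the contrast, was under 0.05, and to have been called where it also changed at least 2-fold. Of the 10 genes, 8 fell and 1 rose, beside 22.7% of all genes tested that fell and 23.0% that rose. The fall was called for 4 genes, Prdm14, Tbx3, Klf5 and Klf4, against 6.54% of all genes. In these 8 genes every shKap1 library lay below every shEmpty library, which was so for 27.4% of all genes. The median log2 change was -0.93 over the 10 genes and -0.01 over all genes.

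Prdm14 fell furthest. Its shEmpty libraries had 61.6, 65.2 and 71.9 CPM and its shKap1 libraries 7.76, 10.3 and 9.92 CPM. The groups were far apart, with a log2 change of -2.83 ± 0.15 (SE, adjusted p = 8.1e-10). Tbx3 had 237, 213 and 215 CPM in shEmpty and 45.97, 56.8 and 59.1 CPM in shKap1. Every knockdown library was under the lowest control, and the log2 change was -2.04 ± 0.08 (adjusted p = 2.7e-12).

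Among the Krüppel-like factors, which bind similar GC-rich sites and can partly replace one another, the direction was split. Klf5 had 126, 132 and 133 CPM in shEmpty and 45.3, 47.6 and 50.1 CPM in shKap1, a log2 change of -1.45 ± 0.11 (adjusted p = 1.95e-08). Klf4, a target of STAT3, had 292, 342 and 342 CPM against 95.6, 147 and 148 CPM, a log2 change of -1.32 ± 0.15 (adjusted p = 6.35e-06). For both genes replicate 1 was the lowest library in each hairpin group. Klf2 was the single gene of the 10 that rose, from 236, 245 and 249.8 CPM to 332, 308 and 338 CPM, without overlap and with a log2 change of 0.42 ± 0.07 (adjusted p = 3.78e-05).

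Tfcp2l1 had 1718, 1668 and 1722 CPM in shEmpty and 904, 829 and 843 CPM in shKap1. Its log2 change of -0.99 ± 0.07 (adjusted p = 2.31e-09) lay just short of 2-fold. Esrrb had 865, 849.7 and 856 CPM against 458, 476 and 472 CPM, with tight groups and a log2 change of -0.87 ± 0.06 (adjusted p = 1.78e-09). Nanog had 904, 1173 and 1180.3 CPM against 607, 678 and 658 CPM. The lowest control stood nearer to the knockdown libraries than to the other controls, and the log2 change was -0.75 ± 0.10 (adjusted p = 1.87e-05). Zfp42 had 128, 130.5 and 129.7 CPM against 91.6, 102 and 109 CPM, a small fall of -0.36 ± 0.08 on the log2 scale (adjusted p = 0.00101).

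Dppa3 had 10.9, 11.6 and 11.04 CPM in shEmpty and 12.5, 7.02 and 8.16 CPM in shKap1. The groups overlapped because replicate 1 of shKap1 was above all controls, and the log2 change of -0.29 ± 0.38 did not pass (adjusted p = 0.587). Without that library alone it was -0.55 and did not pass either (adjusted p = 0.37).

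**Figure D2:**
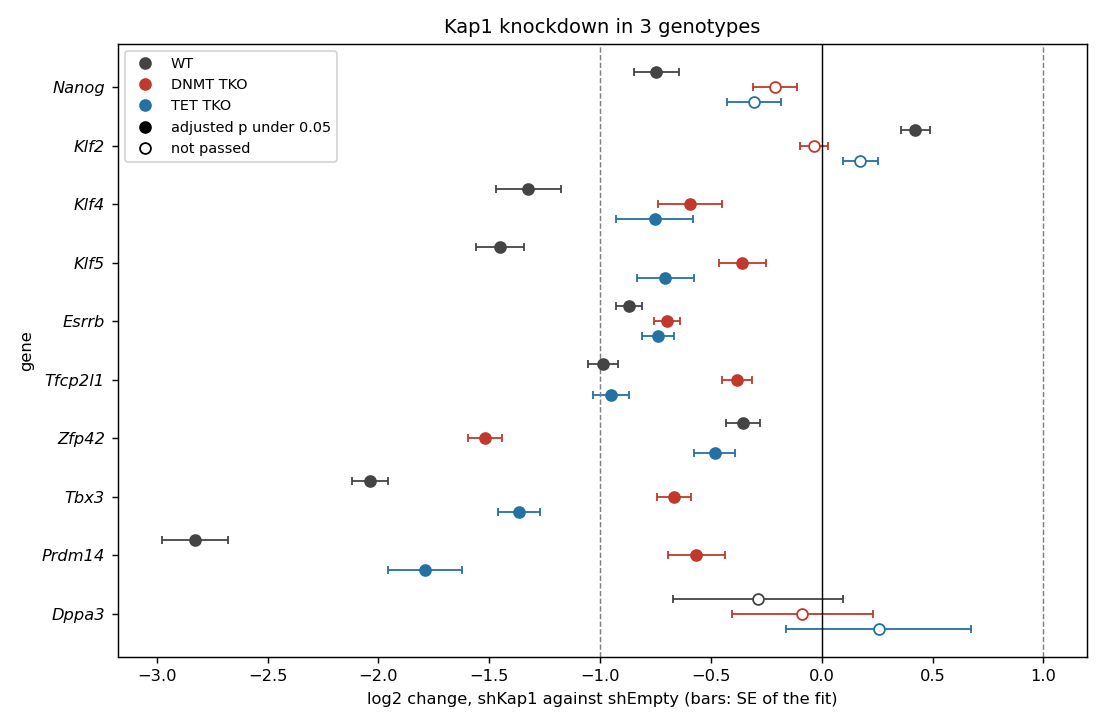
Log2 change of each gene on Kap1 knockdown in WT, DNMT TKO and TET TKO; points are fitted values and bars the SE, filled where the adjusted p was under 0.05. Prdm14 moved by -2.83 in WT, -0.57 in DNMT TKO and -1.79 in TET TKO, and Zfp42 by -0.36, -1.52 and -0.48.

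In DNMT TKO cells the same knockdown lowered 7 of the 10 genes, against 15.6% of all genes tested, and raised none. A single gene, Zfp42, was called, where 2.42% of all genes were called lower. The libraries of the 7 genes did not overlap, which was so for 20.2% of all genes in this direction. The median log2 change was -0.47 over the 10 genes and 0.02 over all genes. Trim28 was left at a higher level in this line than in WT, as given above, and its part in the smaller changes was not tested.

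Zfp42 had 665, 648 and 650.3 CPM in DNMT TKO shEmpty and 195, 233 and 255 CPM in shKap1. It fell by 1.52 ± 0.08 on the log2 scale (adjusted p = 1.3e-10), and its knockdown libraries were still above all WT libraries of either hairpin. Esrrb had 733, 717 and 712 CPM against 394, 455 and 485 CPM, a log2 change of -0.70 ± 0.06 (adjusted p = 6.6e-08). Tbx3 had 248, 222 and 211 CPM against 142, 145 and 142 CPM, a log2 change of -0.67 ± 0.08 (adjusted p = 2.76e-06). These groups were separate, but Tbx3 kept more of its level than it did in WT.

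Prdm14 had 72.2, 103 and 98.1 CPM in DNMT TKO shEmpty and 50.8, 67.7 and 66.2 CPM in shKap1. Replicate 1 was the lowest library of both groups, and the log2 change was -0.57 ± 0.13 (adjusted p = 0.00284). Klf4 had 179, 199 and 198 CPM against 106, 137 and 138 CPM, a log2 change of -0.59 ± 0.14 (adjusted p = 0.00581). Tfcp2l1 had 1257, 1357 and 1331 CPM against 873, 1038 and 1115 CPM, a log2 change of -0.38 ± 0.07 (adjusted p = 0.000239). In each of these genes the highest knockdown library was below the lowest control. Klf5 had 85.4, 93.0 and 79.7 CPM against 52.0, 76.5 and 72.8 CPM, a log2 change of -0.36 ± 0.11 (adjusted p = 0.0149). The gap between its groups was narrow, and without replicate 2 of DNMT TKO shEmpty the change was -0.30 (adjusted p = 0.0696). Without replicate 1 of DNMT TKO shKap1 it was smaller, -0.20, and passed (adjusted p = 0.0383).

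Nanog had 858, 991 and 1034 CPM in DNMT TKO shEmpty and 728, 885 and 875 CPM in shKap1. The groups overlapped and the log2 change of -0.21 ± 0.10 did not pass (adjusted p = 0.116). Each replicate of shKap1 was nevertheless below the same-numbered replicate of shEmpty, and with the replicate number as a block the change of -0.21 passed (adjusted p = 0.019). With 1 library left out it ran from -0.32 (adjusted p = 0.027, without replicate 1 of DNMT TKO shEmpty) to -0.13 (adjusted p = 0.376, without replicate 1 of DNMT TKO shKap1). Klf2 had 347, 366 and 303 CPM against 321, 317 and 353 CPM, an overlap with a log2 change of -0.03 ± 0.06 (adjusted p = 0.725). Dppa3 had 33.6, 84.6 and 86.8 CPM against 45.5, 73.3 and 74.7 CPM. In both groups replicate 1 was well below the others, and the log2 change of -0.09 ± 0.32 did not pass (adjusted p = 0.868). Its sign depended on single libraries, with -0.44 to 0.12 when 1 was left out, none of which passed.

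In TET TKO cells, with 2 libraries per hairpin, 7 of the 10 genes fell, against 15.1% of all genes tested, and none passed in the other direction. Tbx3 and Prdm14 were called, where 4.46% of all genes were called lower. The shKap1 libraries of 8 genes lay below all shEmpty libraries, which was so for 36.2% of all genes, a high share at 2 libraries against 2. The median log2 change was -0.72 over the 10 genes and -0.01 over all genes.

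Prdm14 had 75.8 and 74.6 CPM in TET TKO shEmpty and 21.9 and 21.7 CPM in shKap1. The pairs were tight and far apart, with a log2 change of -1.79 ± 0.17 (adjusted p = 9.91e-07). Tbx3 had 237 and 241 CPM against 90.3 and 95.01 CPM, a log2 change of -1.37 ± 0.10 (adjusted p = 8.65e-09). Tfcp2l1 had 2513 and 2585 CPM against 1296 and 1342 CPM, a log2 change of -0.95 ± 0.08 (adjusted p = 1.16e-07). Its TET TKO shEmpty libraries were the highest of all 16.

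Klf4 had 381 and 361 CPM against 219 and 221 CPM, a log2 change of -0.75 ± 0.18 (adjusted p = 0.00518). Esrrb had 762 and 780.4 CPM against 455 and 469 CPM, a log2 change of -0.74 ± 0.07 (adjusted p = 3.83e-07). Klf5 had 106 and 119 CPM against 68.2 and 69.8 CPM, a log2 change of -0.71 ± 0.13 (adjusted p = 0.000551). All of these were separate between hairpins. Zfp42 had 159 and 154 CPM against 114 and 110.0 CPM, a log2 change of -0.48 ± 0.09 (adjusted p = 0.00069).

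Nanog, with 1106 and 1042 CPM against 866 and 874 CPM, had a log2 change of -0.30 ± 0.12 that did not pass (adjusted p = 0.074) although its libraries were separate. It passed with the replicate number as a block (-0.31, adjusted p = 0.00808) and with only the groups of the contrast in the fit (-0.27, adjusted p = 6.44e-05). Same-numbered TET TKO libraries did not deviate together (correlation -0.04 between hairpins), so the number does not pair them. Klf2 had 309 and 329 CPM against 354 and 365 CPM, a log2 change of 0.17 ± 0.08 (adjusted p = 0.111). Dppa3 had 22.2 and 17.8 CPM against 25.2 and 22.7 CPM, a log2 change of 0.26 ± 0.42 (adjusted p = 0.703). For Klf2 and Dppa3 the shKap1 libraries were the higher ones, without passing the test.

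Whether a gene responded differently in a mutant was tested as the difference of the 2 log2 changes. Between DNMT TKO and WT the difference passed for 8 of the 10 genes. It was positive, a weaker fall in DNMT TKO, for 6 genes, against 10.6% of all genes tested, and negative for 2 genes, against 7.78%. With at least 2-fold, 3 were called higher (4.66% of all genes) and 1 lower (2.48% of all genes). Each comparison of effects uses the same WT libraries, and residual Trim28 differed between these lines, as given above. Its part in these differences was not tested.

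Prdm14 differed most, with 2.26 ± 0.20 (adjusted p = 1.5e-06), from the changes of -2.83 in WT and -0.57 in DNMT TKO. Tbx3 differed by 1.37 ± 0.11 (adjusted p = 1.65e-07) and Klf5 by 1.09 ± 0.15 (adjusted p = 9.18e-05). Tfcp2l1 differed by 0.61 ± 0.09 (adjusted p = 0.000204). For these 4 genes the difference passed without any one of the 12 libraries of both lines. Klf4 differed by 0.73 ± 0.20 (adjusted p = 0.0242) and Nanog by 0.53 ± 0.14 (adjusted p = 0.0153). Klf4 no longer passed without replicate 1 of DNMT TKO shEmpty (0.64, adjusted p = 0.0764), replicate 2 (0.63, adjusted p = 0.079) or replicate 3 (0.61, adjusted p = 0.0852) of DNMT TKO shKap1, or replicate 2 (0.69, adjusted p = 0.0558) or replicate 3 (0.69, adjusted p = 0.0544) of WT shEmpty. Nanog no longer passed without replicate 1 of DNMT TKO shEmpty (0.41, adjusted p = 0.052), replicate 2 (0.44, adjusted p = 0.0642) or replicate 3 (0.44, adjusted p = 0.0664) of DNMT TKO shKap1, or replicate 1 of WT shKap1 (0.44, adjusted p = 0.0663).

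Zfp42 went the other way, with a stronger fall in DNMT TKO (-1.17 ± 0.11, adjusted p = 8.4e-07). Klf2, which rose in WT, differed by -0.46 ± 0.09 (adjusted p = 0.00179). Esrrb fell in both lines. Its difference of 0.17 ± 0.08 did not pass (adjusted p = 0.164), but it did without replicate 1 of DNMT TKO shKap1 (0.25, adjusted p = 0.00747). The difference of Dppa3, 0.20 ± 0.50, did not pass (adjusted p = 0.846) and its SE was the widest of the 10.

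Between TET TKO and WT the difference passed for 3 genes, all positive, against 4.64% of all genes, and was called for Prdm14, against 2.08% of all genes. Prdm14 differed by 1.04 ± 0.22 (adjusted p = 0.0079). This was close to the 2-fold limit, and the call was lost, at 0 genes called, without replicate 3 of WT shEmpty or replicate 1 of WT shKap1. Tbx3 differed by 0.67 ± 0.12 (adjusted p = 0.00189). Klf5 differed by 0.74 ± 0.17 (adjusted p = 0.010), but did not pass without replicate 1 of TET TKO shEmpty (0.66, adjusted p = 0.0567) or replicate 2 of TET TKO shKap1 (0.72, adjusted p = 0.0608). Residual Trim28 did not pass a difference between these lines, with -0.06 ± 0.23 (adjusted p = 0.928).

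The other 7 genes did not pass in TET TKO against WT. Nanog had 0.44 ± 0.16 (adjusted p = 0.0955) and Klf4 0.57 ± 0.23 (adjusted p = 0.142). Both passed with the replicate number as a block, Nanog at 0.43 (adjusted p = 0.0131) and Klf4 at 0.58 (adjusted p = 0.0378), although the number does not pair the TET TKO libraries. Nanog also passed without replicate 1 of WT shEmpty (0.56, adjusted p = 0.00801), the highest of its values with 1 library left out, which ran down to 0.38. Tfcp2l1 had 0.04 ± 0.11 (adjusted p = 0.89), Esrrb 0.13 ± 0.09 (adjusted p = 0.432) and Zfp42 -0.13 ± 0.12 (adjusted p = 0.583). Klf2 had -0.25 ± 0.10 (adjusted p = 0.145) and Dppa3 0.55 ± 0.57 (adjusted p = 0.633).

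**Figure D3:**
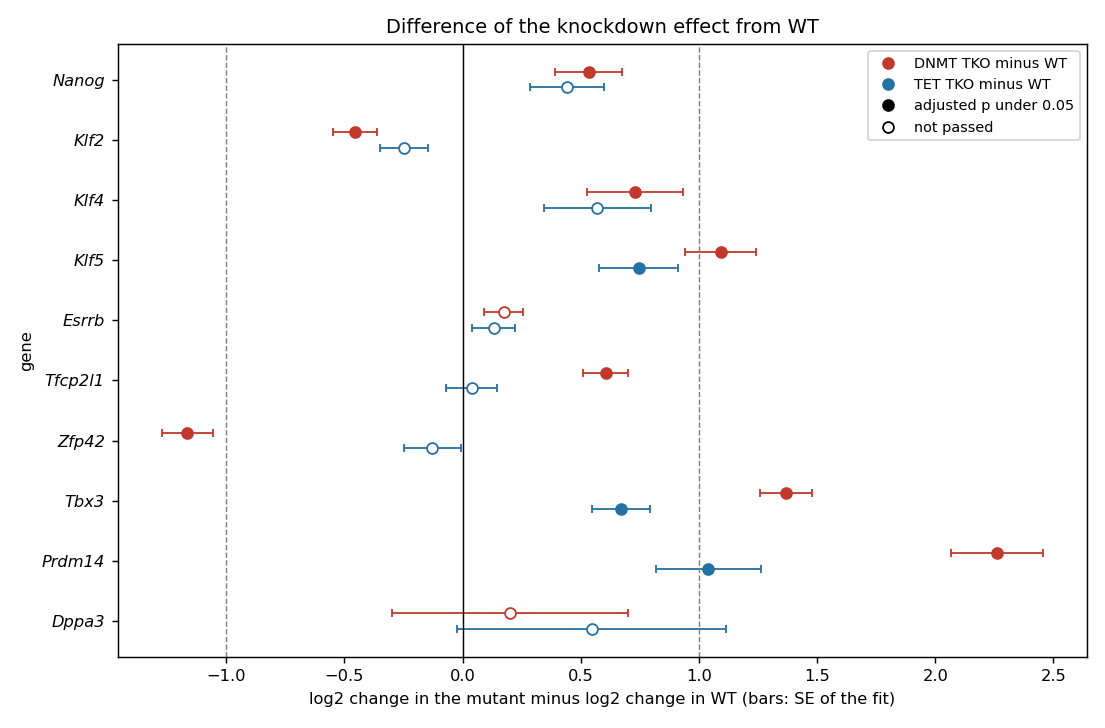
Difference of the knockdown effect from WT, as the log2 change in DNMT TKO or TET TKO minus that in WT; bars are the SE of the fit, filled points had an adjusted p under 0.05 and dashed lines mark 2-fold. Prdm14 lay at 2.26 and 1.04, while Zfp42 lay at -1.17 in DNMT TKO.

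Without knockdown, DNMT TKO and WT cells differed in both directions. Of the 10 genes, 4 were higher, beside 20.5% of all genes tested, and 4 lower, beside 23.1%. Zfp42 and Dppa3 were called higher, against 8.23% of all genes. The median log2 difference was -0.07 over the 10 genes and -0.02 over all genes.

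Zfp42, at 665, 648 and 650.3 CPM in DNMT TKO and 128, 130.5 and 129.7 CPM in WT, was higher by 2.34 ± 0.08 on the log2 scale (adjusted p = 1.47e-13). Dppa3, at 33.6, 84.6 and 86.8 CPM against 10.9, 11.6 and 11.04 CPM, was higher by 2.61 ± 0.35 (adjusted p = 9.54e-05), and its replicate 1 in DNMT TKO was well below the other libraries of that group but above WT. Klf2 was higher by 0.48 ± 0.06 (adjusted p = 1.05e-05) and Prdm14 by 0.46 ± 0.13 (adjusted p = 0.00843). Klf4, at -0.76 ± 0.14 (adjusted p = 0.000703), and Klf5, at -0.60 ± 0.10 (adjusted p = 0.000203), were lower in DNMT TKO. Tfcp2l1 was lower by less, -0.37 ± 0.07 (adjusted p = 0.000193), and so was Esrrb, -0.25 ± 0.06 (adjusted p = 0.0018). Tbx3 overlapped between the lines, with 0.03 ± 0.08 (adjusted p = 0.75).

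Nanog also overlapped, with -0.18 ± 0.10 (adjusted p = 0.173), but passed with the replicate block at -0.17 (adjusted p = 0.0453). With 1 library left out it ran from -0.29, which passed (adjusted p = 0.00874, without replicate 1 of WT shEmpty), to -0.08. It lies on chromosome 6, where the median log2 difference of 970 genes was -0.29 between these lines. Relative to that median Nanog stood at 0.11 and Dppa3, on the same chromosome, at 2.90. On chromosome 8 the median of 1008 genes was -0.18, and relative to it Zfp42 stood at 2.52 and Klf2 at 0.66. The part of chromosome dosage in these differences was not tested.

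Between TET TKO and WT cells without knockdown fewer of the genes passed, with 2 TET TKO libraries where DNMT TKO had 3, and the mutants were not compared with each other. Of the 10 genes, 3 were higher, against 14.1% of all genes tested, none was lower, and none was called, where 5.66% of all genes were called higher and 4.80% lower. An unadjusted p under 0.05 was found for 4 genes, limma-voom called 0 and passed 4, and DESeq2 called 0 and passed 3. Tfcp2l1, at 2513 and 2585 CPM against 1718, 1668 and 1722 CPM, was higher by 0.58 ± 0.07 (adjusted p = 1.12e-05). Klf2, at 309 and 329 CPM against 236, 245 and 249.8 CPM, was higher by 0.39 ± 0.07 (adjusted p = 0.000512). Zfp42 was higher by 0.28 ± 0.08 (adjusted p = 0.0215), but did not pass without replicate 1 (0.25, adjusted p = 0.13) or replicate 2 (0.29, adjusted p = 0.0972) of TET TKO shEmpty. The median of chromosome 8 was 0.11 in this comparison, and relative to it Zfp42 stood at 0.16 and Klf2 at 0.27. Dppa3 had 22.2 and 17.8 CPM against 10.9, 11.6 and 11.04 CPM, separate groups with a log2 difference of 0.84 ± 0.39 that did not pass (adjusted p = 0.144). Nanog overlapped between the lines, at -0.02 ± 0.11 (adjusted p = 0.949). Klf4 (0.19), Prdm14 (0.18), Tbx3 (0.11), Esrrb (-0.15) and Klf5 (-0.21) did not pass either, with adjusted p from 0.0944 for Esrrb to 0.429 for Klf4. Esrrb did pass with scaling by library totals alone (-0.18, adjusted p = 0.0396) and with limma-voom (-0.15, adjusted p = 0.0495). Klf5 passed with only the groups of the contrast in the fit (-0.22, adjusted p = 0.0417).

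**Figure D4:**
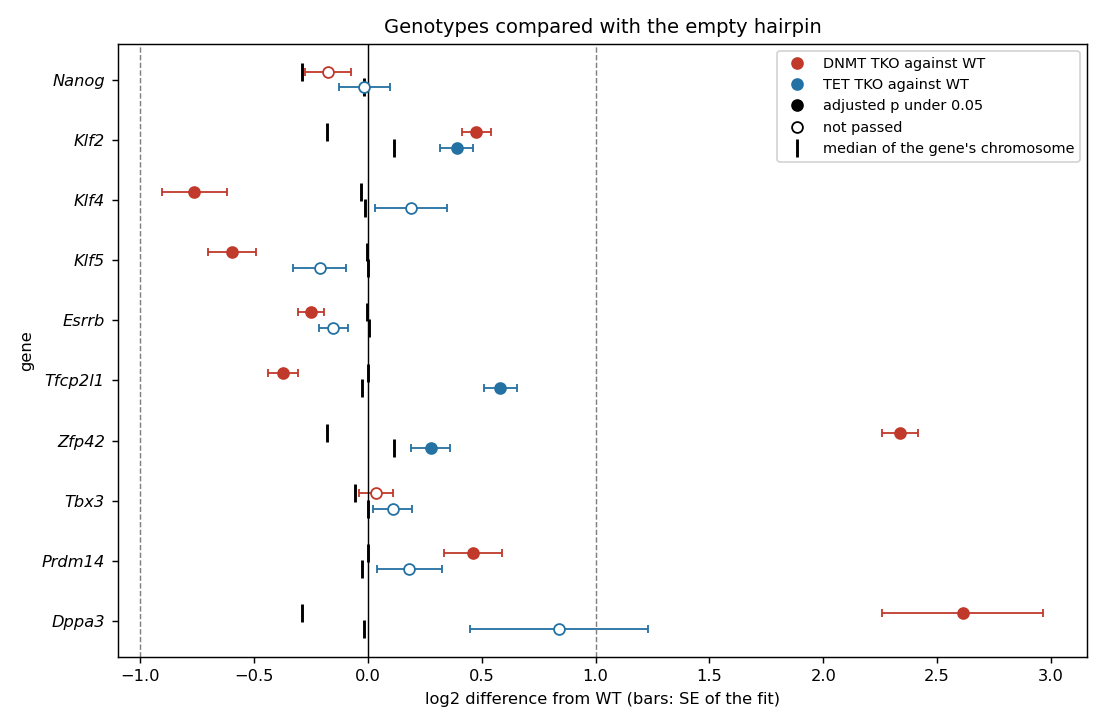
Log2 difference of each gene between a mutant and WT, all with shEmpty; bars are the SE, filled points had an adjusted p under 0.05, and ticks mark the median of all tested genes on the chromosome of the gene. Zfp42 and Dppa3 stood apart in DNMT TKO at 2.34 and 2.61, and Tfcp2l1 had 0.58 in TET TKO.

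Promoters were compared by sequence because the lines differ in DNA methylation enzymes, which act on CpG. RefSeq promoters (GRCm38.p6) were found for Nanog, Klf2, Klf4, Esrrb, Tfcp2l1 and Zfp42, and the 250 bases before each start matched mm9, the build of the count tables, exactly once. No entry was matched for Klf5, Tbx3, Prdm14 and Dppa3. Zfp42 and Nanog are shown as the gene with the largest difference between DNMT TKO and WT among the 6 and the most abundant of the 10, Klf4 and Tfcp2l1 as promoters of higher CpG content. Each is printed 5′ to 3′ on the strand of the gene, and capitals mark CpG.
Zfp42, chr8:44392364-44392613, minus strand: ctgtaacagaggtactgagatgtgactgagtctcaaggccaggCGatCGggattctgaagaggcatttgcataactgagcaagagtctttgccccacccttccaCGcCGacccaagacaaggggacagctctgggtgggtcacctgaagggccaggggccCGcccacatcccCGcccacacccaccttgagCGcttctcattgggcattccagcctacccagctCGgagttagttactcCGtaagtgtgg
Nanog, chr6:122657257-122657506, plus strand: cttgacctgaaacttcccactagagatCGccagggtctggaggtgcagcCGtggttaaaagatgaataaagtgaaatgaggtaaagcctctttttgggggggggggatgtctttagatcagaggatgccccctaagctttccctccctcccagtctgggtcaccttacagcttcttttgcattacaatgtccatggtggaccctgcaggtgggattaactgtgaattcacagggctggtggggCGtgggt
Klf4, chr4:55545348-55545597, minus strand: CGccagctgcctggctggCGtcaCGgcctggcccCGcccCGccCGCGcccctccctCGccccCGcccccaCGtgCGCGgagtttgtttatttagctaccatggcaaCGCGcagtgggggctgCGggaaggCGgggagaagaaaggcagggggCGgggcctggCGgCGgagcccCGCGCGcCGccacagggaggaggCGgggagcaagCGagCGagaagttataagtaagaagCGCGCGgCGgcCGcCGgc
Tfcp2l1, chr1:120524272-120524521, plus strand: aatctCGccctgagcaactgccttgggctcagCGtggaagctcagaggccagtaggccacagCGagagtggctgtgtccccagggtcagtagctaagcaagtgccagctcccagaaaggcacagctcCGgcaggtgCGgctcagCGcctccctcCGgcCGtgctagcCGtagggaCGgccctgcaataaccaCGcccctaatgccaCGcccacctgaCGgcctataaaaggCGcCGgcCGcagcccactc

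Zfp42 held 9 CpG in this window, more than 59.7% of 32851 mouse promoters. Nanog held 3 CpG, more than 29.03%, Klf4 held 32, more than 95.4%, and Tfcp2l1 held 16, more than 74.6%. Klf2, with 29 CpG, lay near Klf4, and the outer start of Esrrb held 6, the median of all promoters. Among these 6 genes the highest CpG counts belonged to Klf4, lower in DNMT TKO shEmpty, and Klf2, higher there.

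A few short motifs were searched on both strands. The core of the POU octamer, ATGCAAA, was in the promoters of Nanog and Zfp42 and in 4.13% of all promoters. In Nanog it was followed by the SOX core CATTGT, found in 10.7% of all promoters. The windows are printed because these were the single genes of the 6 with an octamer core; capitals mark the match, which starts at position -75 in Nanog and -185 in Zfp42, and at -67 for the SOX core of Nanog, with the base before the start counted as -1.
Nanog, octamer core: ttacagcttctTTTGCATtacaatgtccat
Nanog, SOX core: ttcttttgcattACAATGtccatggtggac
Zfp42, octamer core: ctgaagaggcaTTTGCATaactgagcaaga
The KLF core GGGNGTG was in the windows of Nanog, Zfp42, Tfcp2l1 and the outer start of Esrrb, and in 26.1% of all promoters. The core AAGGTCA of ESRRB (4.08% of all promoters) and the STAT palindrome TTCCNGGAA (0.913%) were in none of the 6. A match of letters is a description of the window and shows no binding.

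Chromatin marks were available from WT J1 cells as peaks with a score against input, in 2 replicates. H3K4me3, the mark of active and poised promoters, was within 1 kb of the start in both replicates for 8 of the 10 genes, beside 69.3% of all genes tested. Nanog, Klf2, Klf4, Klf5, Tfcp2l1, Zfp42 and Tbx3 had the score of 3100 in both replicates, the most frequent top value, which 9.37% and 27.1% of all genes reached at their start. Prdm14 had 1312 and 1985. Dppa3 had a peak in replicate 2 alone, with a score of 108. Esrrb had none at its outer start but scores of 631 and 1267 at its second promoter, chr12:87762344-87762593. Elsewhere in its gene body the highest scores were 2722 and 3100.

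H3K27me3, the Polycomb mark, was at the start of 2 of the 10 genes in both replicates, beside 15.9% of all genes. Dppa3 had scores of 190 and 840 and Esrrb 93 and 154, while the second promoter of Esrrb had 491 and 682. In WT shEmpty Dppa3 had the lowest TPM of the 10 and Esrrb the third highest.

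KAP1 regions overlapped the start of none of the 10 genes, beside 4.40% of all genes. The nearest lay 1.90 kb upstream of Nanog, and the next 11.5 kb upstream of Zfp42. For the others the distance was 34.9 kb (Klf5) to 145 kb (Esrrb). Regions of H3K9me3 that depend on KAP1 were also at none of the 10 starts, beside 1.02% of all genes. They lay 7.24 kb upstream of Zfp42 and 8.83 kb upstream of Dppa3, and at least 28.96 kb away from the other 8. Prdm14 and Tbx3, which fell most on knockdown in WT, had their nearest KAP1 region at 55.6 kb and 35.9 kb downstream of their start.

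5hmC over the marked regions was counted by the authors in WT cells with 1 usable library per hairpin, so no difference was tested, and intervals (95%, exact Poisson) cover counting error only. For each gene the longest region at its start was taken. The H3K4me3 region of Nanog held 199 reads of 5hmC in shEmpty (172 to 229) and 288 in shKap1 (256 to 323), with input reads of 220 and 304. It spans the KAP1 region 1.90 kb upstream of Nanog. In shEmpty KAP1 regions had a median log2 5hmC over input of 0.02 and H3K4me3 regions one of -1.51. The part of this overlap in the values of Nanog was not tested. The 5hmC of the Nanog region relative to input in shEmpty was 0.59 log2 above the median of all H3K4me3 regions. The change of the Nanog region between hairpins lay 0.01 above the shift of that set. This shift is the set's median in shKap1 minus its median in shEmpty. The region of Prdm14 held 41 reads (29.4 to 55.6) in shEmpty and 75 (59.0 to 94.0) in shKap1, with 78 and 93 input reads, a change 0.55 above the set's shift. Klf4 lay 0.30 above it. The other H3K4me3 regions at the starts of these genes, those of Klf2, Klf5, Tfcp2l1, Zfp42 and Tbx3, lay between 0.15 below it (-0.149, Tbx3) and 0.00110 above it (Zfp42). The H3K27me3 region at the outer start of Esrrb went from 59 (44.9 to 76.1) to 88 reads (70.6 to 108) while its input had 28 and 20, a change 1.08 above the median of the H3K27me3 set, and that of Dppa3 lay at -0.05.

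The genes around the network were described from fixed lists. Their counts stand beside the shares of all genes tested that fell, 22.7% in WT, 15.6% in DNMT TKO and 15.1% in TET TKO, and that rose, 23.0%, 19.7% and 15.3%. Among 14 further genes of the naive network, 10 fell and 2 rose on knockdown in WT, 5 fell and 2 rose in DNMT TKO, and 4 fell and 2 rose in TET TKO. The medians were -0.56, -0.22 and -0.20 on the log2 scale. Tcl1, a coactivator of AKT, fell from 57.7 to 2.48 CPM in WT, a log2 change of -4.54 ± 0.20 (adjusted p = 3.75e-10), by 1.38 in DNMT TKO and by 1.80 in TET TKO. Nr0b1, or Dax1, an orphan nuclear receptor, changed by -3.16 ± 0.23 in WT (adjusted p = 1.3e-07), -1.24 in DNMT TKO and -1.74 in TET TKO. Dppa2 rose in all 3 lines, by 0.59 ± 0.14 in WT (adjusted p = 0.00278), by 1.20 ± 0.14 in DNMT TKO (adjusted p = 1.43e-05) and by 1.57 ± 0.17 in TET TKO (adjusted p = 9.32e-06). The fall of Tcl1 and Nr0b1 was weaker in both mutants: Tcl1 differed from WT by 3.16 ± 0.26 in DNMT TKO (adjusted p = 1.39e-06) and 2.74 ± 0.28 in TET TKO (adjusted p = 3.02e-05), and Nr0b1 by 1.92 ± 0.30 (adjusted p = 0.000688) and 1.42 ± 0.33 (adjusted p = 0.0169).

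Of 8 genes of the LIF and STAT3 branch, 6 fell (22.7% of all genes) and 1 rose (23.0%) in WT, 5 fell in DNMT TKO (15.6%) and 4 in TET TKO (15.1%), with medians of -0.47, -0.31 and -0.29. Pim3, a related kinase gene, was called in WT (-1.08 ± 0.10, adjusted p = 7.92e-08). Pim1, a kinase gene induced by STAT3, changed by -2.34 ± 0.24 in WT (adjusted p = 5.51e-06), -1.07 ± 0.22 in DNMT TKO (adjusted p = 0.00233) and -1.65 ± 0.28 in TET TKO (adjusted p = 0.000654). Its fall was weaker in DNMT TKO than in WT by 1.27 ± 0.32 (adjusted p = 0.0155). Of 6 genes of the WNT and GSK3 branch, 3 fell in WT, 6 in DNMT TKO and 4 in TET TKO, with medians of -0.27, -0.70 and -0.47. Lef1, a nuclear partner of beta-catenin, was called in DNMT TKO, from 8.54 to 2.97 CPM (-1.52 ± 0.40, adjusted p = 0.00927).

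Of 8 target genes of MEK and ERK, 4 fell and 1 rose in WT, 3 fell in DNMT TKO, and 1 fell and 1 rose in TET TKO, with medians of -0.42, -0.58 and 0.15. The counts in TET TKO lay near the shares of all genes, 15.1% lower and 15.3% higher. Dusp6, an ERK phosphatase gene, was called in WT (-1.39 ± 0.47, adjusted p = 0.0279). Etv4, an ETS factor gene, changed by -2.96 ± 0.15 in WT (adjusted p = 5.86e-10) and -2.16 ± 0.15 in DNMT TKO (adjusted p = 3.09e-08), and its effect differed between TET TKO and WT by 2.77 ± 0.22 (adjusted p = 1.79e-06). Spry2, a feedback inhibitor of receptor signalling, changed by -1.57 ± 0.11 in WT (adjusted p = 8.98e-09) and -1.54 ± 0.12 in DNMT TKO (adjusted p = 6.8e-08).

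Genes of the formative and primed states, which follow the naive state, moved in both directions. Of 6 tested, 1 rose and 2 fell in WT, 2 rose and 1 fell in DNMT TKO, and 2 rose in TET TKO, with medians of 0.30, 0.25 and 0.66. The counts in WT lay near the shares of all genes, 23.0% higher and 22.7% lower. Sox3 rose in all 3 genotypes, by 1.59 ± 0.20 in WT (adjusted p = 3.6e-06), 1.99 ± 0.20 in DNMT TKO (adjusted p = 6.9e-07) and 3.11 ± 0.26 in TET TKO (adjusted p = 7.47e-08), at 6.84 to 9.27 CPM after knockdown. Foxd3, a forkhead factor gene, fell from 21.3 to 5.71 CPM in WT (-1.89 ± 0.31, adjusted p = 0.000193). Sox11 rose by 1.80 ± 0.38 in DNMT TKO (adjusted p = 0.00182) and by 1.14 ± 0.32 in TET TKO (adjusted p = 0.0139).

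Without knockdown, 20.5% of all genes were higher and 23.1% lower in DNMT TKO than in WT, and 14.1% were higher and 13.1% lower in TET TKO. Of the 14 further naive genes, 4 were higher and 5 lower in DNMT TKO than in WT, with none called, and 3 were higher and 3 lower in TET TKO, where Tcl1 was higher by 1.11 ± 0.16 (adjusted p = 0.000107) and Gbx2, a homeobox gene, lower (-1.20 ± 0.16, adjusted p = 1.69e-05). In the LIF and STAT3 branch 3 of 8 were higher and 2 lower in DNMT TKO and 2 were lower in TET TKO, none of them called. Sp5, a target gene of WNT signalling, was lower in TET TKO (-1.45 ± 0.24, adjusted p = 0.000346), and Spry2 was lower in DNMT TKO (-1.75 ± 0.11, adjusted p = 2.59e-09). Dusp4, an ERK phosphatase gene, was higher in TET TKO (1.48 ± 0.39, adjusted p = 0.00858), at 2.68 against 1.02 CPM. Of the 6 formative and primed genes tested, 1 was called higher and 2 lower in each mutant, beside 8.23% of all genes called higher and 8.05% called lower in DNMT TKO and 5.66% and 4.80% in TET TKO. Otx2, a homeobox gene of the primed epiblast, was higher than in WT by 3.18 ± 0.42 in DNMT TKO (adjusted p = 2.01e-05) and by 2.11 ± 0.48 in TET TKO (adjusted p = 0.00373), at 6.50 and 3.08 CPM. Sox11 moved further and the other way in DNMT TKO, from 10.9 to 1.06 CPM (-3.44 ± 0.35, adjusted p = 1.43e-06), and Sox3 was lower in TET TKO (-1.08 ± 0.26, adjusted p = 0.00464).

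**Figure D5:**
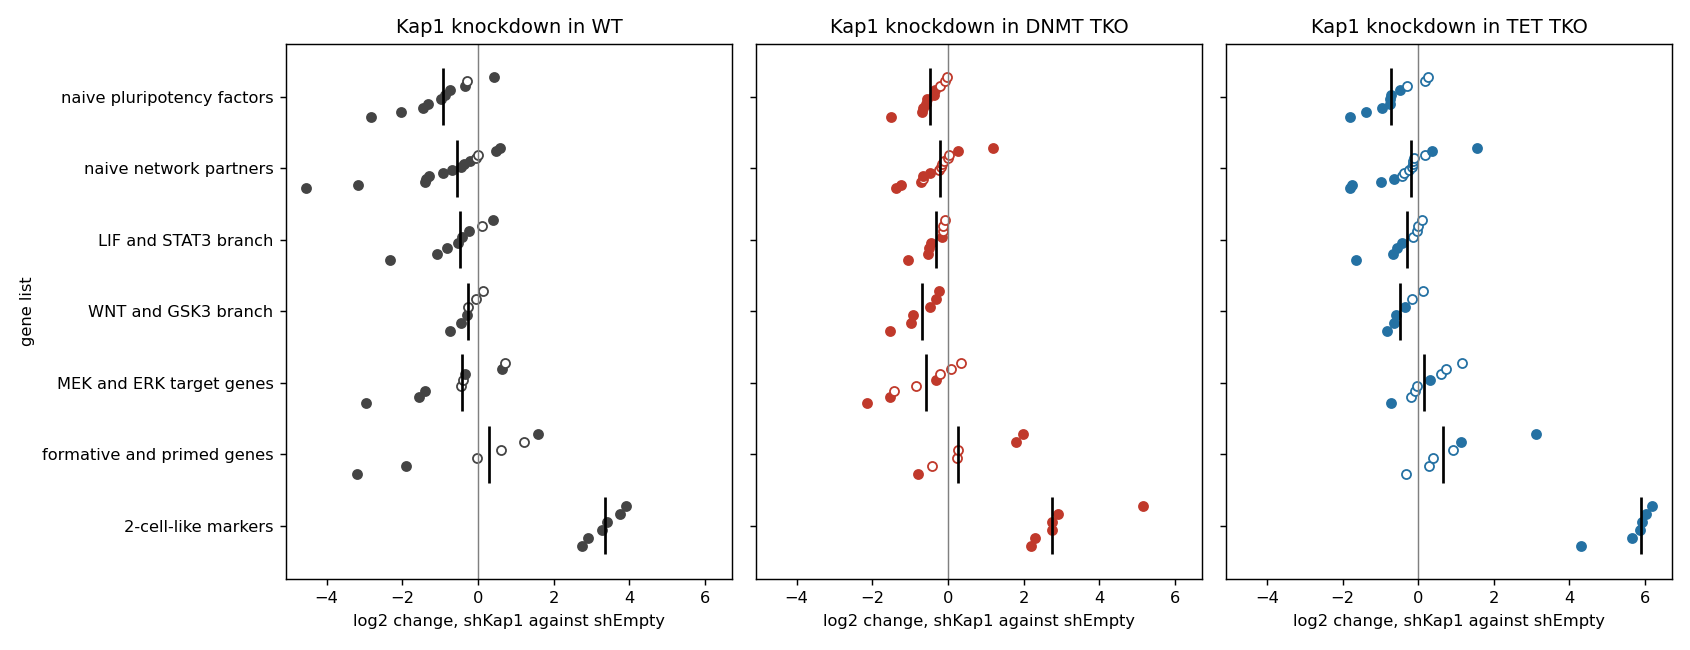
Log2 change on Kap1 knockdown of the genes of each fixed list by genotype; points are genes and bars are medians. The medians of the 14 further naive genes were -0.56, -0.22 and -0.20 in WT, DNMT TKO and TET TKO, and those of the 2-cell-like markers 3.35, 2.74 and 5.89.

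Markers of other cell states were summed by list in every group, as TPM. TPM of each of the factors was lower in replicate 2 of TET TKO shEmpty than in replicate 1, even where CPM was higher. Tfcp2l1 had 754 and 595 TPM in replicates 1 and 2, but 2513 and 2585 CPM. The part of this difference in scale in the overlaps of sums in TET TKO was not tested, so these overlaps do not show equal levels. The level of 6 genes of the 2-cell-like state, a rare state of mESC cultures, ran from 15.9 to 31.6 TPM in WT shEmpty and from 260.2 to 300.2 TPM in WT shKap1. It went from 7.55 to 24.4 up to 79.8 to 178.5 TPM in DNMT TKO and from 8.57 to 13.3 up to 747 to 772.4 TPM in TET TKO. All 6 genes were called higher in each genotype, beside 10.8%, 10.1% and 8.05% of all genes, and none of the 6 was at 0 over a whole group. Sox2, a general pluripotency gene, fell from 329 to 130.2 CPM in WT (-1.34 ± 0.08, adjusted p = 9.13e-10). It also fell from 318 to 167 CPM in TET TKO (-0.93 ± 0.10, adjusted p = 1.9e-06), and went from 419 to 278 CPM in DNMT TKO. The change of Sox2 in DNMT TKO was weaker than in WT by 0.75 ± 0.12 (adjusted p = 0.0002).

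The 7 primitive endoderm markers summed to 8.80 to 10.98 TPM in WT shEmpty and 10.9 to 12.6 TPM in WT shKap1, an overlap. The sum did not overlap in DNMT TKO, at 4.46 to 6.54 and 8.05 to 10.1 TPM, or in TET TKO, at 7.66 to 11.2 and 11.7 to 12.03 TPM. Its members moved apart in WT, at low levels. There Sox17 rose from 0.425 to 2.02 CPM (2.21 ± 0.37, adjusted p = 9.4e-05) and Dab2 fell from 5.91 to 1.67 CPM (-1.84 ± 0.31, adjusted p = 8.7e-05). Dab2 rose in DNMT TKO, from 1.24 to 2.77 CPM (1.16 ± 0.33, adjusted p = 0.0103). The 7 trophoblast markers went from 119 to 163 TPM up to 174 to 180.0 TPM in WT, from 79.6 to 84.9 down to 58.3 to 73.3 TPM in DNMT TKO, and overlapped in TET TKO at 121 to 167 and 138 to 141 TPM. The sum of the 5 mesoderm markers was lower with shKap1 in all 3 lines, at 4.74 to 6.60 and 2.88 to 3.65 TPM in WT, 15.2 to 20.7 and 6.98 to 7.64 TPM in DNMT TKO, and 3.70 to 5.35 and 3.39 to 3.41 TPM in TET TKO. Not every member fell. In TET TKO Mixl1 passed (-1.02 ± 0.35, adjusted p = 0.0346), T and Kdr were lower without passing, and Mesp1 and Tbx6 were higher without passing. In WT Kdr and T fell, and Mesp1 was higher without passing.

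The 4 neural markers in the count tables summed to 169 to 175 TPM in WT shEmpty and 106 to 107 TPM in WT shKap1. In that comparison Tubb3 fell from 101 to 34.1 CPM (-1.57 ± 0.23, adjusted p = 0.000134), whereas Pax6 (2.77 ± 0.41, adjusted p = 5.53e-05) and Nes (1.27 ± 0.11, adjusted p = 1.3e-07) rose. Between hairpins the neural sum overlapped in both mutants, at 107 to 149.8 and 90.5 to 128 TPM in DNMT TKO and 131.0 to 163 and 129 to 141 TPM in TET TKO. The 6 fibroblast markers overlapped in WT, at 5.27 to 9.30 and 4.93 to 8.60 TPM, and in DNMT TKO, at 8.09 to 12.9 and 11.7 to 13.03 TPM, but not in TET TKO, at 7.30 to 9.66 and 6.42 to 7.25 TPM. Of these Lum was at 0 in the shKap1 libraries of WT and TET TKO. The part of these cell states in the falls of the naive factors was not tested.

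The genes whose pattern was most like each factor were found as those with the smallest root mean square difference in centred log2 CPM over the 6 group means, among 13504 genes with at least 500 reads. For Tfcp2l1 these were Gpr160, at 0.06, and Ephb3, at 0.09, and both were also its nearest over the 16 libraries. For Zfp42 they were Grhl2, at 0.17, and Grid1, at 0.22, again the same pair over the libraries. Esrrb was nearest to Adnp2 (0.05) and Tle3 (0.07), Klf5 to Sh3bp1 (0.10) and Dppa5a (0.11), and Klf4 to Tubb3 (0.10) and Hpdl (0.11). Tbx3 was nearest to 2810410L24Rik (0.16) and Kif5a (0.17), and Prdm14 to C330008G21Rik (0.27) and Rasal1 (0.27). For these 5 genes 1 of the 2 was retained over the 16 libraries. Nanog was nearest to Srrd (0.06) and Wdr46 (0.06), Klf2 to Zfp609 (0.05) and Dpy19l3 (0.06), and Dppa3 to A730085A09Rik (0.22) and Cct6b (0.24), and none of these was retained.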

How the data were processed

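The 10 genes and all gene lists were chosen with earlier results of these data known. RNA was sequenced from 16 libraries (single-end, stranded poly(A) kit). The authors aligned reads to mm9, kept unique alignments and deposited read counts per Ensembl gene over exons, made with featureCounts (1.5.1 in the submitters' processing notes). The methods name HISAT2 (2.0.1 in those notes), while the count headers carry another file name, so the aligner is uncertain. Reads over the copies of Nanog and Dppa3 elsewhere in the genome could not be separated beyond this filter. The ChIP files hold the score of each peak against its input as deposited by the authors (MACS 1.4 for H3K4me3, program not given in the sources used here for H3K27me3). The 5hmC read counts over regions were also made by the authors. Replicate 2 of hMeDIP, whose labels and file names disagree, and the repeat counts were not used.

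Genes with at least 16 reads over the 16 libraries were tested in 1 fit of 6 groups with edgeR 4.0.16 (R 4.3.3, TMM, robust quasi-likelihood F test, Benjamini-Hochberg adjustment per contrast); edgeR was also tested on simulated data. Of 37991 identifiers 37205 had a symbol; a list symbol with 2 identifiers took the one with more reads. Each SE was derived from the fit, as the size of the log2 change divided by the square root of the F statistic. TPM used the exon length in the count tables. Named were the 10 genes, up to 3 called genes per list and contrast with the largest change and at least 500 reads, the 2 genes most like each of the 10, and Trim28; some list genes of other cell types are given only in sums, and 1 list gene that met this rule is not reported here. Peaks were matched by at least 1 bp within 1 kb of the gene start, and 5hmC used a pseudocount of 1 read, with each library scaled by its total over the region sets.

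Same-numbered libraries deviated together in WT (shEmpty with shKap1, correlations from 0.198 to 0.391), in DNMT TKO (0.167 to 0.499) and between their shEmpty libraries (0.240 to 0.445), so the numbers pair these libraries by their values, since no source says what a number marks. TET TKO libraries did not (-0.04 between hairpins). Alternatives were limma-voom 3.58.1, the test of the study, DESeq2 1.42.0, other scalings, filters, libraries in the fit, replicate blocks and leaving out each library.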

Additional observations from a re-analysis of the deposited data

Results flagged for a closer look

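For 8 of the 10 genes the effect of Kap1 knockdown differed between DNMT TKO and WT in the test of the difference itself, with adjusted p under 0.05 over all genes (edgeR), 6 upward beside 10.6% of all genes and 2 downward beside 7.78%. The log2 change in DNMT TKO minus that in WT was 2.26 for Prdm14, 1.37 for Tbx3, 1.09 for Klf5, 0.73 for Klf4, 0.61 for Tfcp2l1 and 0.53 for Nanog, all weaker falls in DNMT TKO. Those of Klf4 and Nanog no longer passed in 5 and 4 of the fits without 1 library, and in the fit with no filter on reads. It was -1.17 for Zfp42 and -0.46 for Klf2. Trim28 was left at 22.9% in DNMT TKO and at 9.42% in WT, and its part was not tested.

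Between TET TKO and WT the effect differed for 3 genes, by 1.04 for Prdm14, 0.74 for Klf5 and 0.67 for Tbx3, beside 4.64% of all genes that passed upward. That of Klf5 no longer passed in 2 of the fits without 1 library. Here Trim28 was left at 9.03% and 9.42%. Both sets of differences use the same 6 WT libraries.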

How the results depend on the processing

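No change that passed turned its direction under any alternative run. Without the fold threshold the genes called numbered 9, 7 and 7 for the knockdown in WT, DNMT TKO and TET TKO, 8 and 3 for DNMT TKO and TET TKO against WT, and 8 and 3 for the differences of the knockdown effect in DNMT TKO and TET TKO from WT. Leaving out 1 library at a time gave 4 to 5, 1 to 1, 2 to 2, 2 to 2, 0 to 0, 3 to 4 and 0 to 1 genes called in the same order; with the libraries numbered 1 left out together, chosen after seeing the data, 0 genes were called for the difference between TET TKO and WT. That setting removes the libraries in which Dppa3 stood apart, so its adjusted p for this gene is no support. Under it the change of Dppa3 passed in the knockdown in WT (-0.57, adjusted p = 1.61e-05), in DNMT TKO (-0.23, adjusted p = 0.000784) and, upward, in TET TKO (0.36, adjusted p = 0.00908). Dppa3 then also passed in TET TKO against WT (0.67, adjusted p = 1.93e-06), where it passed with only the groups of the contrast too (0.83, adjusted p = 0.00168), and in the differences of DNMT TKO (0.33, adjusted p = 0.0244) and TET TKO (0.93, adjusted p = 2.63e-05) from WT. Klf2 no longer passed without those libraries in TET TKO against WT (0.42, adjusted p = 0.0593) or in the difference between DNMT TKO and WT (-0.42, adjusted p = 0.104). Of single genes that passed, 299 values kept and 14 lost significance when 1 library was left out. Under the other alternatives 433 kept and 6 lost it; among the losses the differences of Nanog and Klf4 between DNMT TKO and WT had adjusted p of 0.0607 and 0.0818 with no filter on reads, and with only the groups of the contrast in the fit Klf4 had 0.0592 there and Klf5 0.0749 in the knockdown in DNMT TKO. The cause of these losses was not tested. Of those that had not passed, 36 values passed under an alternative.

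With the replicate number as a block, Nanog passed in the knockdown in DNMT TKO (-0.21, adjusted p = 0.019) and TET TKO (-0.31, adjusted p = 0.00808), in DNMT TKO against WT (-0.17, adjusted p = 0.0453) and in the difference between TET TKO and WT (0.43, adjusted p = 0.0131), where Klf4 passed too (0.58, adjusted p = 0.0378). The block changed no other call or pass of the 10 genes. It gives each number 1 effect shared by all lines, while same-numbered TET TKO libraries did not deviate together. With only the groups of the contrast in the fit, the knockdown in TET TKO passed for Nanog (-0.27, adjusted p = 6.44e-05), Klf2 (0.21, adjusted p = 0.00126) and Dppa3 (0.29, adjusted p = 0.034), and Klf2 also passed there with library totals alone (0.25, adjusted p = 0.0235). With 1 of the 2 libraries of a TET TKO group left out, the lone library was assumed to vary like the other groups.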
